A study of Mus musculus with 9 samples.

Results

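Neuroblast and neuronal-like cells were rare in these brains and lay mostly in 2 samples. Of 15391 kept cells in 9 samples, 59 (0.383%) were members. Members were chosen by their UMIs (unique molecular identifiers, each standing for 1 captured transcript) of neuronal marker genes. A kept cell was a barcode with at least 200 genes and at most 30% of UMIs on mitochondrial genes. A member was a kept cell with UMIs of at least 3 of Dlx1, Dlx2, Dlx6os1, Dcx, Cd24a, Sp9, Tubb3, Stmn2 and Nrxn3 and with none of Csf1r, Cldn5, Rgs5, Aqp4 and Pdgfra, which mark myeloid cells, endothelial cells, pericytes, astrocytes and oligodendrocyte progenitor cells (OPCs). Differences between members and other cells in these 14 genes, or in genes that go with them, are therefore a description of the choice. No test of members against other cells was made.

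Neuroblasts are immature neurons. In the adult mouse forebrain they arise in the subventricular zone from transit-amplifying progenitors, migrate in chains to the olfactory bulb and mature there mainly into GABAergic interneurons. The Dlx homeobox transcription factors specify this lineage, and doublecortin (Dcx) and neuron-specific tubulin (Tubb3) belong to the microtubule cytoskeleton of the migrating cell.

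The cells came from brains of nude mice, which lack a functional thymus, and were profiled by Drop-seq, a droplet method that reads the 3' end of transcripts. Nu-NB was 1 sample of normal nude mouse brain without a tumor. PDOX denotes patient-derived orthotopic xenografts, in which organoids of human glioblastoma had been implanted into the frontal cortex, so that the tumor was human and the tumor microenvironment was of the mouse; 7 untreated samples carried the tumors P3, P8, P13, T16, T101, T192 and T233, of which T192 and T233 were derived from the same patient. P3TMZ was 1 sample of the P3 tumor treated with temozolomide, a DNA alkylating drug. Human cells had been removed by FACS in P8 and by a mouse cell depletion kit (MACS) in the other PDOXs, and Nu-NB had been sorted by FACS. By the study's account of its temozolomide experiment, P3 and P3TMZ came from 1 mouse each. Control P3 mice of that experiment received the vehicle, saline with DMSO, so that untreated means without temozolomide here. The number of mice in the other samples and the ages of the mice are not given in the sources used here. With 1 Nu-NB sample and 1 treated sample, neither group has a spread of its own, and all intervals below cover counting error only.

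Kept cells numbered 760 to 2916 per sample, with medians of 521 to 1303 UMIs. The deepest sample was P13. The files of Nu-NB and P8 list 163 and 171 processed pseudogenes, and those of the other samples list 3484 to 4567, so that counts of genes that differ between Nu-NB and P13 members used the 12580 symbols listed in every file, while CPM were taken over all UMIs of a cell set. Of 36 pairs of samples, 10 shared between 1 and 5 cell barcodes, 20 barcodes in all, and no shared barcode belonged to a member.

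The Nu-NB sample held 18 members among 1868 kept cells, which is 0.964% (95% exact binomial interval 0.572 to 1.52%). P13 held 33 of 2916 (1.13%, 0.780 to 1.59%), T16 held 5 of 2126 (0.235%, 0.0764 to 0.548%), T192 held 2 of 1905 (0.105%, 0.0127 to 0.379%) and T233 held 1 of 974 (0.103%, 0.00260 to 0.571%). No member was found among 2447 kept cells of P8, 1577 of T101 and 818 of P3, which allows shares of up to 0.123%, 0.190% and 0.367% when 3 counts are taken as the limit. The intervals of Nu-NB and P13 overlapped each other, and neither overlapped that of any other sample. Some of the rule's genes were not listed in some files, which lowers the chance of a member there: Dlx2 in P8 and T101, Dlx6os1 in T233, and Dlx2, Dlx6os1, Dcx and Nrxn3 in P3. P13 had more UMIs per kept cell than any other sample. When cells were thinned to 500 UMIs, those with fewer were left out. P13 then held 27 members of 2873 cells (0.940%) and Nu-NB 9 of 1041 (0.865%). Among cells with at least 500 genes the order was the other way, with 14 members of 462 cells in Nu-NB (3.03%) and 28 of 2325 in P13 (1.20%).

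**Figure D1:**
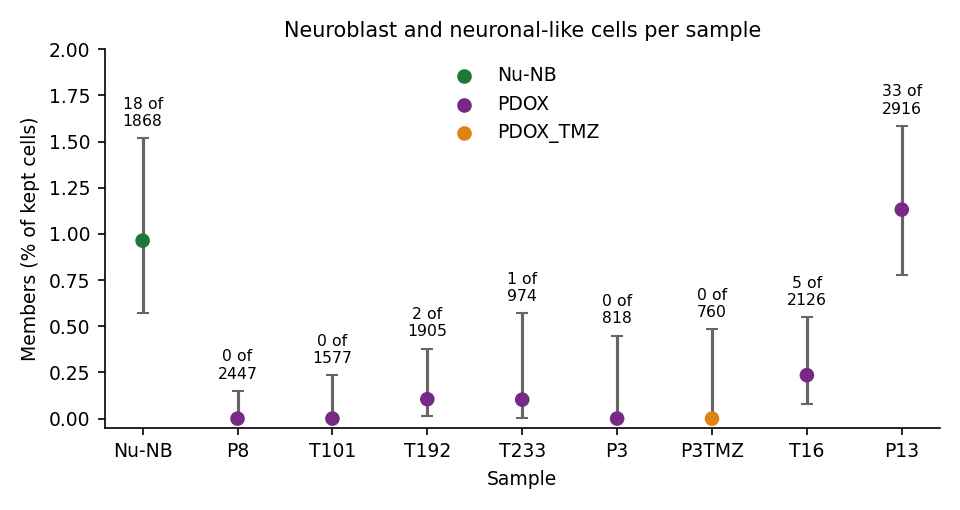
Share of kept cells that met the rule (vertical axis, percent) in each of the 9 samples, with exact 95% binomial intervals as bars and the counts above them. Nu-NB at 0.964% and P13 at 1.13% stand above the other samples, of which T16 is highest at 0.235%.

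The temozolomide-treated sample could not be compared for these cells. Both P3 (0 of 818) and P3TMZ (0 of 760) held no member, which allows shares of up to 0.367% and 0.395%. Dlx2, Dlx6os1 and Dcx were listed in neither file.

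The cells nearest the threshold differed between samples. Cells with exactly 2 of the 9 marker genes and none of the excluded genes numbered 8 in Nu-NB, 13 in P13 and 15 in T192. They numbered 6 in T16, 4 in T233, and 2 each in P8 and T101. Exactly 3 were held by 4 members of Nu-NB, 5 of P13, 4 of the 5 of T16, 1 of T192 and 1 of T233. With at least 4 marker genes the share was 0.0470% in T16 and 0.0525% in T192. A further 68 cells of P13, 10 of T192, 9 of T16 and 2 of Nu-NB had 3 or more marker genes together with an excluded gene. Those of P13 had a median of 6192 UMIs, against 1255 in members, and 45 of the 68 held 2 or more of the excluded genes; those of T16 had a median of 14573 UMIs. Csf1r was the excluded gene in 46 of the P13 cells and Aqp4 in 42. No member was among the 5% of cells with the highest doublet scores in its sample.

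Members were checked for signs of human tumor cells counted on mouse genes. Processed pseudogenes are intronless copies of mRNAs, and human reads of conserved genes can align to them when mapped to the mouse genome. Members of Nu-NB, a brain with no human cells, had 0.131 to 1.57% of their UMIs on processed pseudogenes. Of the 33 members of P13, 31 had 1.86 to 11.2% and the other 2 had 26.7% and 32.4%. The 5 members of T16 had 8.22 to 13.9%. Both members of T192 (27.6% and 28.1%) and the member of T233 (27.7%) lay far above these, and no member of any sample lay between 13.9% and 26.7%. The pseudogene share was not comparable between Nu-NB and the MACS samples because their files list different numbers of pseudogenes. On the 115 pseudogenes that every file lists the 5 cells did not stand apart: they had 1.22 to 1.505% of their UMIs there, within the ranges of Nu-NB members (0.131 to 1.57%) and of the other P13 members (0 to 1.58%). Within P13, over all pseudogenes of its file, the median was 7.75% in members and 4.30% in all kept cells.

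The 5 members over 20% differed from the other 54 in genes that the rule did not use. Malat1, an abundant nuclear long noncoding RNA, had 0 to 76.3 UMIs per 10000 in these 5 cells and 57.9 to 836 in the other 54. Gap43, a growth-cone protein also made by glioblastoma cells, had UMIs in all 5 cells (23 UMIs in all) and in 7 of 54 others (7 UMIs). The neurofilament light chain Nefl had 12 UMIs in 2 of the 5 cells, in T192 and T233, and none in the 54. Conversely, none of the 5 cells held a UMI of Gad2, Igfbpl1, Dpysl3, Meis2 or Stmn1. In the other 54 members Stmn1 was found in 39, Meis2 in 36, Dpysl3 in 33, Igfbpl1 in 31 and Gad2 in 22. Of the marker genes that chose the members, Dlx6os1, Sp9, Cd24a and Nrxn3 had no UMI in the 5 cells either. Human counts were not analysed here, and whether the 5 cells were human was not tested. The threshold of 20% was set after these values were seen.

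**Figure D2:**
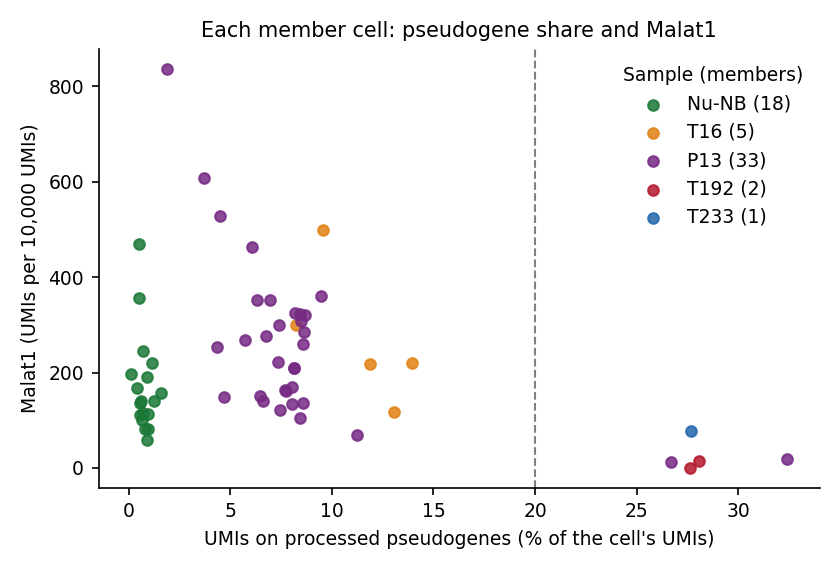
Each point is 1 of the 59 member cells, with the percent of its UMIs on processed pseudogenes (horizontal axis) and its Malat1 UMIs per 10000 UMIs (vertical axis), coloured by sample. The 5 cells right of the dashed line at 20% come from T192, T233 and P13 and have 0 to 76.3 Malat1 UMIs per 10000.

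Of the 9 marker genes, Tubb3 and Dlx1 were the ones most often found in kept cells over 20% of P13, T192 and T233, whether members or not. Tubb3 was found in 18.4 to 60.9% of the cells over 20% in each of the 7 MACS samples and in 0 to 2.72% of the others, whereas Dlx1 was found in 0.489 to 1.10% of them in T101, P3, P3TMZ and T16. In P13, Tubb3 had UMIs in 60.9% of the 87 cells over 20% and in 2.72% of the other 2829, and Dlx1 in 42.5% and 3.99%. In T192, Tubb3 was found in 44.7% of 197 cells over 20% and in 0.527% of the other 1708, and Dlx1 in 21.3% and 0.527%. Stmn2 was found in 16.2% and 3.98% in T192 and in 6.90% and 5.66% in P13, and Dcx in 7.61% and 0.351% in T192 and in 13.8% and 1.63% in P13. Dlx6os1, a long noncoding RNA antisense to the Dlx5 and Dlx6 locus, showed no such difference: it was found in 1.15% of cells over 20% and 2.72% of the others in P13, and in 0 of 197 cells over 20% in T192. The same held for Cd24a, a sialoglycoprotein of neuroblasts, with 0 of 87 cells over 20% in P13 and 6.82% of the others. Cells over 20% had a median of 2315 UMIs in P13, against 1273 in the others. With Dlx1 and Tubb3 left out of the rule, an alternative chosen after seeing the data, 13 members remained in Nu-NB, 23 in P13 and 1 in T16, and there were none in T192 and T233. Another alternative left out cells above the 99th percentile of Nu-NB cells on the 115 processed pseudogenes listed in every file (0.974%). It left 35 of 59 members: 16 of 18 in Nu-NB, 16 of 33 in P13 (0.661% of 2421 cells) and 3 of 5 in T16. The 5 cells over 20% did not stand apart on these 115 genes, so this limit does not single them out.

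**Figure D3:**
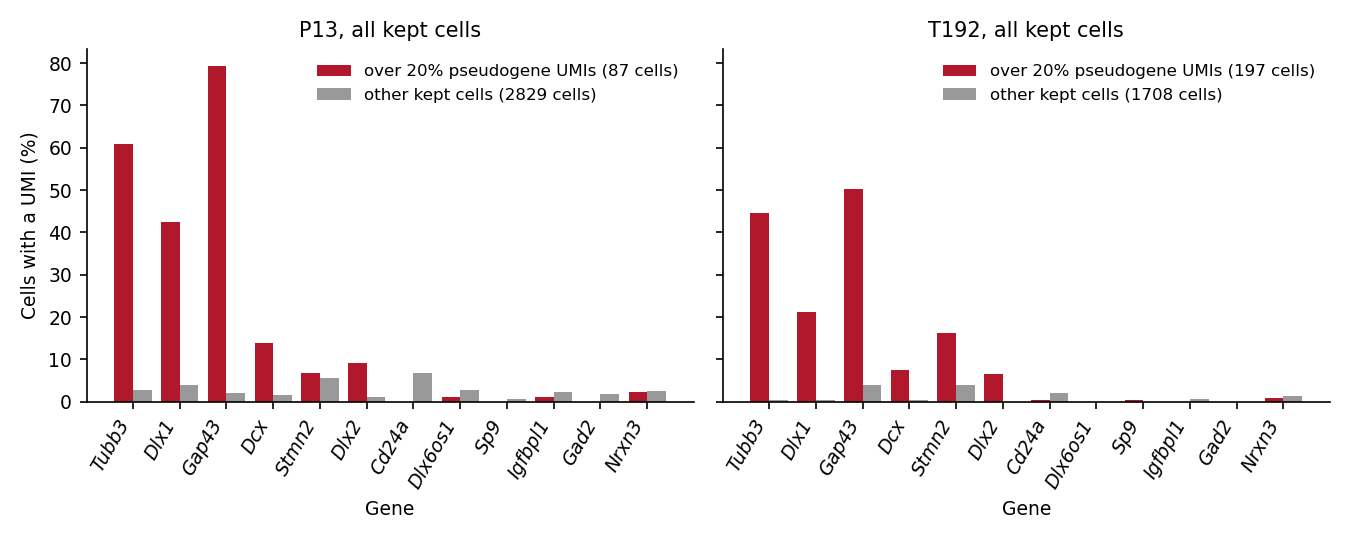
Percent of kept cells with a UMI of each gene in P13 and T192, in cells with over 20% of UMIs on processed pseudogenes (red) and in the other kept cells (grey). Tubb3, Dlx1 and Gap43 stand high in the red bars, while Cd24a, Dlx6os1, Sp9, Igfbpl1 and Gad2 are at 1.15% or below in them.

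Genes outside the rule went with the label in Nu-NB and P13. T16 members and the 5 members over 20% held few UMIs of them, and what those cells are was not tested. The neuroblast transcription factors and the neuronal RNA-binding genes summed to less there than in Nu-NB and P13 members. The 28 cytoskeleton and migration genes stood at 15164.5 CPM in T16 members and 16616.6 CPM in Nu-NB members. The 3 members of T192 and T233 held UMIs of 4, 2 and 2 of the neuroblast transcription factors, of 2, 0 and 0 of the neuronal RNA-binding genes and of none of the GABAergic genes. The 15 neuroblast transcription factors summed to 6556 CPM (UMIs of a gene or list per 1000000 UMIs of the cells summed) in the Nu-NB members and to 7851 CPM in the 31 P13 members up to 20%, against 1159 and 812 CPM in astrocyte-like cells of the same samples. They summed to 2289 CPM in T16 members, from 8 UMIs, and to 2416 CPM in the 5 members over 20%, from 21 UMIs of which 10 were Sox4. The 15 neuronal RNA-binding and early transcription factor genes summed to 3050 and 2523 CPM in Nu-NB and P13, had no UMI in T16 members, and had 3 UMIs in the 5 members over 20%. At least 1 of Dlx1, Dlx2 and Dlx6os1 was found in 58 of the 59 members, and the exception was a P13 cell with 26.7% of UMIs on pseudogenes. In Nu-NB members the marker genes were found in 16 (Dlx1), 16 (Dlx6os1), 10 (Dcx), 10 (Stmn2), 9 (Cd24a), 8 (Tubb3), 8 (Nrxn3), 7 (Sp9) and 5 (Dlx2) of 18 cells. In P13 members they were found in 26 (Tubb3), 26 (Stmn2), 25 (Dlx1), 22 (Dlx6os1), 19 (Cd24a), 14 (Sp9), 12 (Nrxn3), 10 (Dcx) and 10 (Dlx2) of 33 cells. Free RNA in droplets gives a background, which was read from cells that should lack these genes. Myeloid-like cells of P13 held a Dlx1 UMI in 2.47% of 405 cells, Cd24a in 3.70% and the other 7 marker genes in 0.247 to 1.98%, at a median depth of 1586 UMIs. Some values in other cell types were higher. Stmn2 had UMIs in 8.17% of 306 endothelial-like cells of P13 and in 3 of 19 of Nu-NB, and Cd24a in 5.20% of 442 astrocyte-like cells of P13. In T192, Stmn2 was found in 15.9% of 170 endothelial-like and 0.856% of 584 myeloid-like cells. In T233 it was found in 14.8% of 88 and 1.09% of 275. Whether free RNA or expression by these cells gave these values was not tested. Tubb3 in astrocyte-like cells lay nearly all in those over 20% in pseudogenes: in T16 it was found in 28 of 56 such cells, at a median of 1415 UMIs, and in 1 of the other 216, at 548 UMIs, and in T192, T233 and T101 in 11 of 17, 7 of 12 and 27 of 122 such cells and in none of the other 73, 40 and 53. The 5 members of T16 rested on Dlx1 (5 cells), Dlx2, Dlx6os1 and Tubb3 (3 cells each), Stmn2 (2 cells) and Cd24a (1 cell), and held no UMI of Dcx, Sp9 or Nrxn3.

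Genes outside the rule that neuroblasts are known for were high in members. Over the 1300 genes with at least 10 UMIs in the members of Nu-NB and P13 together, 430 (33.1%) were at least 2-fold higher in members than in the other kept cells of the same sample in both samples, and 21 (1.62%) at least 2-fold lower, with no test; their median log2 ratio was 1.27 in Nu-NB and 0.87 in P13. A limit on UMIs in members leaves out genes that are low in members, so the lists are given here over all their genes that both files list. The share of all genes of both files with a higher CPM in members is not given here. The counts of higher and lower genes per list are therefore a description with no background beside them. Of 15 neuroblast transcription factors, 11 had a higher CPM in members than in the other cells of both samples, 1 a lower one in both and 3 neither. The lower one was Zfhx3, with no UMI in members against 350 and 132 CPM in the other cells. Of the 10 with at least 10 UMIs, 8 were 2-fold higher in both samples. Sox4, Meis2, Nfib and Sox11 had the highest levels. Sox4, a SoxC factor of newborn neurons, stood at 1867 CPM in Nu-NB members against 197 CPM in the other cells, and at 1464 against 120 CPM in P13. Sox11, its close relative, stood at 501 against 7.77 CPM in Nu-NB and at 1067 against 31.1 CPM in P13, and Meis2 at 1138 against 119 and at 1365 against 50.1 CPM. Dlx5, which was not part of the rule, had 4 UMIs in the Nu-NB members and 11 in those of P13, at log2 ratios of 5.58 and 6.85.

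Of 28 cytoskeleton and migration genes, 22 had a higher CPM in members in both samples and 3 a lower one in both, namely Gpm6a, at 91.0 and 149 CPM in members against 454 and 201 CPM in the other cells, and Robo1 and Cxcr4, with no UMI in members and at most 16.6 CPM in the other cells. Of the 21 with at least 10 UMIs, 18 were 2-fold higher in both samples. Tuba1a, the main tubulin of migrating neurons, had 61 UMIs in 17 of 18 Nu-NB members and 223 UMIs in 31 of 33 P13 members. Stmn1, which destabilises microtubules, had 109 UMIs in 17 cells and 42 in 20 cells. Dpysl3 and Crmp1, collapsin response mediators, were at log2 ratios of 5.56 and 6.32 in Nu-NB and 5.57 and 5.59 in P13. The exceptions among the 21 were Dclk1, at -0.92 and 0.56, and Ncam1 and Fez1, which were below 2-fold in Nu-NB. Of 13 listed neuronal RNA-binding and early transcription factor genes, 9 had a higher CPM in members in both samples, among them Celf4, Elavl3, Myt1 and Elavl4, and 1, Rbfox3, a lower one with no UMI in members. Over the 3 lists together, 32 of 37 genes with at least 10 UMIs were 2-fold higher in both samples, and without cells over 20% 31 of the 35 that still reached 10 UMIs were; Gap43, with 3 UMIs in Nu-NB and 3 of its 10 in P13 left, was among those that did not.

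**Figure D4:**
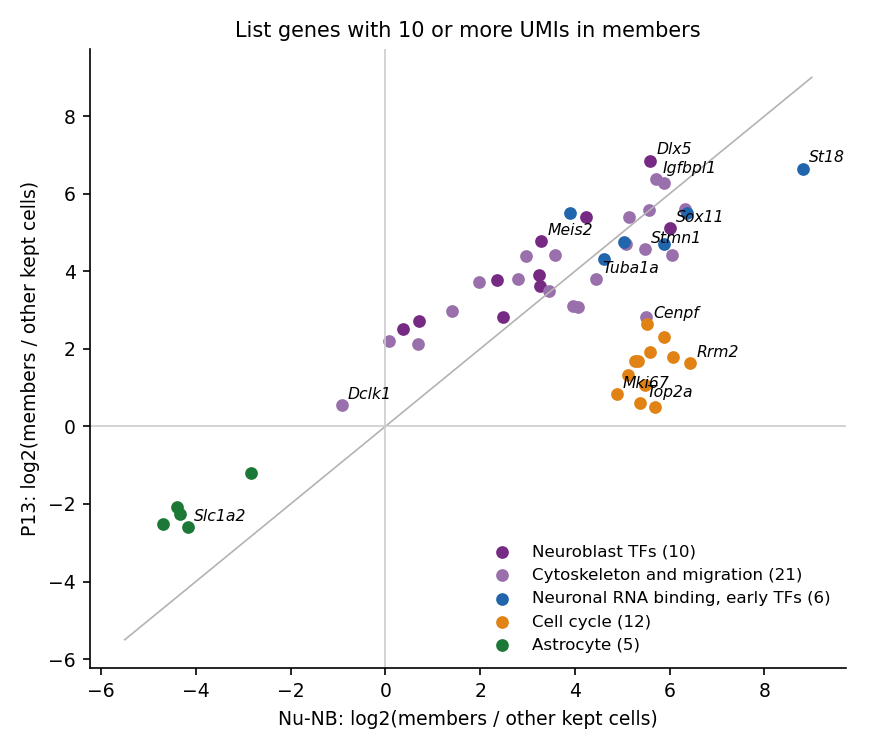
Log2 ratio of members over other kept cells in Nu-NB (horizontal axis) and P13 (vertical axis) for list genes with at least 10 UMIs in members; the grey diagonal marks equal ratios. Neuroblast genes lie near the diagonal in the upper right, cell-cycle genes lie high in Nu-NB and lower in P13, and the 5 astrocyte genes lie below 0 in both samples.

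By the rule for named genes, among the genes outside the rule with the largest median ratio were St18, E130006D01Rik, Scrt1, Srrm4, St8sia2, Asxl3, Gad2, Hist3h2ba, Celsr3, Ly6h, Gm14204, Cacnb3, Dlx5 and Zfp57. Of these 14, 8 had fewer than 10 UMIs in the members of both samples together, so that their order rests on few counts. St18 and Scrt1 are zinc finger factors of neuronal differentiation, and Srrm4 is a splicing factor that includes neuronal microexons. St18 had 11 UMIs in Nu-NB members and 9 in P13 members, against 0.777 and 2.29 CPM in the other cells. Scrt1 had 4 UMIs in each, against 1.55 and 0.602 CPM. Hist3h2ba had 1 UMI in Nu-NB members and 12 in P13 members, so its place rests on P13. Among the lowest were Ctss, Pla2g7, Laptm5, C1qb, Tyrobp, Gpr34, B2m, Hbb-bs and Slco1c1, which are mostly genes of microglia. B2m, the light chain of MHC class I, had no UMI in Nu-NB members and 10 in P13 members, against 843 and 4175 CPM in the other cells.

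Of 9 listed GABAergic genes, 2, Gad1 and Gad2, had a higher CPM in members than in the other cells of both samples, 3 (Calb2, Npy and Pvalb) had no UMI in members and so a lower one, and 4 neither. Gad2, which makes GABA, was found in 7 of 18 Nu-NB members (10 UMIs) and 14 of 33 P13 members (25 UMIs), at 455 and 620 CPM against 3.88 and 8.19 CPM in the other cells. Gad1 had 4 and 5 UMIs and the vesicular GABA transporter Slc32a1 had 0 and 4. Npy stood at 310 and 27.6 CPM in the other cells of Nu-NB and P13, and had 8 UMIs in 1 member of T16. No UMI of the glutamatergic genes was found in the 54 members up to 20%, and 1 was found in a T192 cell. The files of Nu-NB and P13 both list only 4 of these 9 genes, which summed to 0 and 5.90 CPM in the other kept cells. Genes of mature neurons were sparse: of 20, 5 had a higher CPM in members in both samples and 9 a lower one, and 3 reached 10 UMIs, namely Map2, Gria2 and Rtn1, and Rtn1 and Map2 were 2-fold higher in both samples. Snap25, of the synaptic vesicle fusion complex, had 3 UMIs in each sample.

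Markers of most other cell types were near 0, and those of astrocytes and myeloid cells were lower than in other cells. The rule left out every cell with Csf1r, Cldn5, Rgs5, Aqp4 or Pdgfra. Low levels of the myeloid, endothelial, mural, astrocyte and OPC lists are therefore a description of the choice. No member held 2 or more genes of the OPC, oligodendrocyte, endothelial, mural, ependymal or erythrocyte lists. For the choroid plexus list 3 members did, for the fibroblast list 1 and for the lymphocyte list 1. The astrocyte list was 2-fold lower in both samples for all 5 genes measured, and its sum was 1138 CPM in Nu-NB members and 1812 CPM in P13 members, against 24239 and 9248 CPM in the other cells. Of 59 members 17 held 2 or more astrocyte genes, 12 of them in P13 and 1 of these with 7. The 10 myeloid genes summed to 182 and 695 CPM against 12944 and 11280 CPM, with 4 members of P13 holding 2 or more. Ttr, a secreted choroid plexus transcript, had 3 UMIs in Nu-NB members and 29 in those of P13, at 137 and 720 CPM against 2989 and 11443 CPM in the other cells. What part free RNA has in these values was not tested.

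In the Nu-NB sample most members expressed genes of proliferation. Of 18 members, 12 had UMIs of at least 2 of 21 cell-cycle genes, and after thinning to 500 UMIs 10 of 15 did (66.7%, 95% exact interval 38.4 to 88.2%), against 1.66% of 1026 other cells. In P13, 8 of 33 members passed without thinning and 6 of 32 after it (18.8%, 7.21 to 36.4%), against 11.4% of 2841 other cells; with the 2 cells over 20% left out it was 6 of 30 members. Without cells above the 99th percentile of the Nu-NB cells in their share of UMIs on the 115 processed pseudogenes that every file lists, 1 of 15 P13 members passed (6.67%) and 10 of 14 of Nu-NB. In T16, 3 of 4 members passed after thinning, and 1 of 2 under that percentile. The intervals of Nu-NB and P13 did not overlap at 500 UMIs; at 1000 UMIs, which left 10 and 21 members, the shares were 80.0% (44.4 to 97.5%) and 33.3% (14.6 to 57.0%) and the intervals overlapped. Each group is 1 sample here, so that a difference between normal and tumor-bearing brain cannot be told apart from one between samples. The share in the remaining PDOXs rests on 3 members of T192 and T233, of which none passed after thinning.

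Top2a, the DNA topoisomerase of dividing cells, had 57 UMIs in 11 of 18 Nu-NB members and 24 UMIs in 6 of 33 P13 members, a level 4.36 times higher in Nu-NB (exact interval 2.66 to 7.34). Mki67, the Ki-67 antigen, had 46 UMIs in 10 cells and 22 in 6 cells, a ratio of 3.84 (2.26 to 6.69). Ccnd2, the cyclin of neural progenitors, was found in all 18 Nu-NB members (171 UMIs) and in 27 of 33 P13 members (90 UMIs), a ratio of 3.49 (2.68 to 4.55). In the other kept cells the order was the reverse for Top2a (62.9 CPM in Nu-NB and 399 CPM in P13) and Mki67 (71.5 and 312 CPM). Cenpf, a kinetochore protein, had 35 and 51 UMIs and its ratio of 1.26 had an interval that includes equality (0.795 to 1.97). The intervals are not adjusted for the number of genes looked at.

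**Figure D5:**
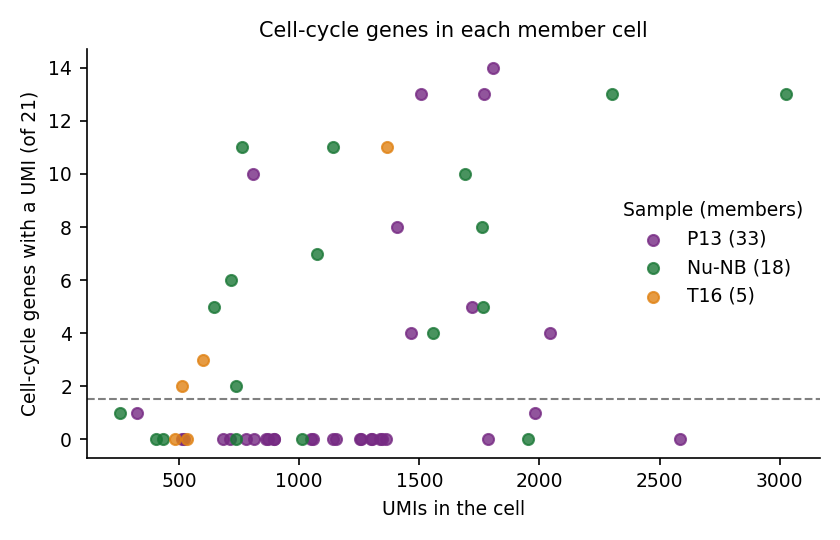
Number of 21 cell-cycle genes with a UMI (vertical axis) against the UMIs of the cell (horizontal axis) for members of P13, Nu-NB and T16. Of 18 Nu-NB cells 12 lie above the dashed line that separates 0 or 1 gene from 2 or more, against 8 of 33 P13 cells, over a similar range of UMIs.

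Members with 2 or more cell-cycle genes were deeper than the others, with medians of 1348 and 584 UMIs in Nu-NB (12 and 6 cells) and of 1506 and 1055 UMIs in the P13 members up to 20% (7 and 24 cells). Since every member had to hold 3 marker genes, the marker genes take a larger share of a shallow cell and are not compared here. Hmgb2, a chromatin protein of dividing cells that is neither a marker gene nor on the cell-cycle list, stood at 3202 CPM in cycling and 209 CPM in other members of Nu-NB, and at 1241 and 39.7 CPM in P13. Sox11 was at 582 and 209 CPM in Nu-NB, from 10 UMIs and 1, and at 1718 and 993 CPM in P13, from 18 and 25 UMIs. Sox2, a factor of neural stem cells, was at 640 and 626 CPM in Nu-NB, from 11 and 3 UMIs, and at 477 and 39.7 CPM in P13, from 5 UMIs and 1. Gad2 ran the other way, at 408 and 626 CPM in Nu-NB and at 191 and 913 CPM in P13, from 2 to 23 UMIs a value. The cells were split by genes of the same libraries, so these values carry no test.

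Between P13 and Nu-NB members, most neuroblast genes were within 2-fold. Over 1283 genes with at least 10 UMIs that every file lists, 199 (15.5%) were at least 2-fold higher in P13 members and 278 (21.7%) at least 2-fold lower, with no test, and the median log2 difference was -0.18. Without cells over 20% these were 203 and 248 of 1211 genes. Of 8 neuroblast transcription factors 1 was 2-fold higher (Sox11) and none lower. The log2 difference of Sox11 was 1.04 in members and 1.93 in the other kept cells. Of 20 cytoskeleton and migration genes 2 were higher and 1, Stmn1, was lower. Without the 2 P13 cells over 20%, 2 transcription factors and 4 cytoskeleton genes were higher. Of 4 neuronal RNA-binding and early transcription factor genes 1, Elavl4, was 2-fold lower in P13 members, at a log2 difference of -1.15 (-0.97 without those 2 cells), and none was higher. Stmn1 stood at 4962 CPM in Nu-NB and 1042 CPM in P13, a ratio of 4.76 (3.31 to 6.97). In the other kept cells Stmn1 was also lower in P13, at 112 CPM in Nu-NB and 44.5 CPM in P13. Its log2 difference was -2.24 in members and -1.33 in the other cells. Nnat, an imprinted proteolipid, was 3.54 times higher in P13 (2.08 to 6.43), and its log2 difference in the other cells was 0.22. Tubb3, Dlx1 and Dlx6os1 chose the members, so that their ratios of P13 to Nu-NB, 2.06, 0.938 and 0.847, are a description of the chosen cells. Of 12 cell-cycle genes 7 were at least 2-fold lower in P13 members and none higher, and 6 of 12 without the 2 cells over 20%.

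Of the genes with the largest differences, those lower in P13 were mostly lower in the other cells as well. The 10 lowest in P13 members were Rps23, Rpl21, Hmgn2, Hspa8, Rpl11, Rpl17, Hnrnpa3, Rpl23a, H2afz and Hmgb1, and 9 of them were also at least 2-fold lower in the other kept cells of P13. Rps23 had 27 UMIs in Nu-NB members and none in P13 members, at least 16.5-fold lower with 3 counts as the limit, and its log2 difference in the other cells was -3.43. The P13 file lists 4567 processed pseudogenes and the Nu-NB file 163, and the part of this in such differences was not tested. The 10 highest were Ctsd, Pcbp2, Hist1h4c, Arl3, Lgals1, Pnrc1, Gm10073, Ssrp1, Ccdc59 and Csnk2b, each with no UMI in Nu-NB members, and 6 of them were at least 2-fold higher in the other kept cells too; Ccdc59 was at a log2 difference of -0.44 there and Arl3 at 0.30. Over all genes, 70 of the 278 lower and 87 of the 199 higher in members passed 2-fold in the same direction in the other cells. All 14 UMIs of Hist1h4c and 10 of 13 of Lgals1, a galectin, came from the 2 P13 cells over 20%. These genes were ranked by size in place of a p-value, since only 1 sample of each group held at least 10 members.

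Fits with more samples were possible only under looser rules. With samples of at least 5 members (Nu-NB, T16 and P13), in which the spread came from the 2 PDOXs alone and the lone Nu-NB sample is assumed to vary like them, edgeR called 2 of 586 genes (0.341%), Rps23 and Hmgn2, both lower in PDOXs; 43 genes had an unadjusted p under 0.05. Neither call was kept with RLE factors, without a filter or with DESeq2, where 0 genes were called and the smallest adjusted p was 0.724, 0.792 and 0.398, with 31, 31 and 11 genes at an unadjusted p under 0.05. With members by at least 2 of 9 marker genes (Nu-NB, T192, T16 and P13), edgeR called 0 of 678 genes (0%), with 41 at an unadjusted p under 0.05. That count rested on which PDOXs entered: it was 10 of 766 without T192 (5 higher and 5 lower in PDOXs), 14 of 891 without T16 (8 and 6) and 0 of 382 without P13, where 12 had an unadjusted p under 0.05. Rps23 and Hmgn2 were among the genes called without T192 and without T16. In both fits the change between PDOX and Nu-NB in members differed from that in the other cells for 0 genes, with 47 and 38 at an unadjusted p under 0.05. T16 had 3495 UMIs in its 5 members and 14 of the 15 T192 cells with exactly 2 marker genes were over 20% in pseudogenes.

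Across the 7 untreated PDOXs no relation of the member share was found with 3 other measures. Pearson's r was -0.219 with the share of kept UMIs on processed pseudogenes (exact permutation p = 0.493, two-sided; adjusted p = 0.493), and Spearman's rho was -0.408 (exact permutation p = 0.371, adjusted p = 0.719). With the share of OPC-like cells r was -0.257 (exact permutation p = 0.375, adjusted p = 0.493) and rho -0.185 (p = 0.719, adjusted p = 0.719). With the share of astrocyte-like cells r was 0.364 (exact permutation p = 0.435, adjusted p = 0.493) and rho 0.222 (p = 0.643, adjusted p = 0.719). Without the 2 samples farthest from the median on the horizontal measure, r was -0.603, -0.242 and 0.671, and without P13 it was -0.153, -0.237 and 0.0430. P8 was the only FACS-sorted PDOX, so that no relation could be computed within FACS samples. Its file lists 171 processed pseudogenes, against 3484 to 4567 for the other PDOXs. The r of -0.219 with pseudogenes therefore includes a share that is not comparable with the others. Among the 6 MACS samples r was -0.599, -0.103 and 0.668.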

How the data were processed

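Drop-seq libraries of 9 samples were sequenced. Per the labels, the authors used bcl2fastq 2.0 and STAR with GRCm38 (mm10); the annotation release is not given in the sources used here. The deposited values are raw UMI counts per gene and barcode of mouse-derived cells, without normalization. The files hold 33998 barcodes; doublet removal and integration described by the study were not repeated. Members and lists were chosen with earlier results of these data known, and the human-cell threshold and the rule without Dlx1 and Tubb3 after seeing the data.

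UMIs were summed over members and over other kept cells of a sample. CPM used the sum's own total, and log2 ratios added 0.5 counts. Named genes were the 4 highest of each list, the 15 highest and 10 lowest against other cells, and the 10 largest differences in each direction between P13 and Nu-NB, at a mean of 50 CPM or more (between P13 and Nu-NB also with at least 10 UMIs); other genes were named after their values were seen. OPC-like and astrocyte-like cells held Pdgfra or Aqp4, at least 2 genes of their list and none of the other excluded genes. Processed pseudogenes, transcribed ones included and unprocessed ones not, were taken from GENCODE M21. Doublet scores came from scrublet in scanpy 1.11.5; its own caller marked 0 to 4.87% of cells per sample (none in P13), so the highest 5% of each sample were left out instead, as an alternative. Shares have exact Clopper-Pearson intervals at 95% from scipy 1.17.1, and ratios exact conditional intervals. Fits used edgeR 4.0.16 (quasi-likelihood, TMM, Benjamini-Hochberg adjusted p up to 0.01 and an absolute log2 fold change of at least 1) and DESeq2 1.42.0, and were tested on simulated data. The test of PDOX against Nu-NB that had been planned on samples with at least 10 members was not made, since it would have set 1 sample against 1. A few genes that the rule for named genes or the lists hold are not reported here.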

Additional observations from a re-analysis of the deposited data

Results flagged for a closer look

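Within the 7 untreated PDOXs, 7 measures were examined for a sample far from the others by Dixon's ratio, whose 95% critical value for 7 samples is 0.568; chance flags about 1 in 20 groups. The member share of P13, 1.13%, stood apart from the next sample at 0.235% (ratio 0.792). The median of 1303 UMIs per kept cell in P13 stood apart from the next at 763 (0.691). Among cells with at least 500 UMIs, each thinned to 500, the member share was 0.940% in P13 and 0.164% in T192, the next highest PDOX. The share of OPC-like cells in P8, 13.9%, stood apart from the next at 2.92% (0.791), while P8 held no member.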

How the results depend on the processing

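Of 117 values recomputed under another setting, 100 stayed within the limits set for a change, 17 moved and none reversed; the cause was not tested. The 59 members became 109 with at least 2 of 9 marker genes, 148 without the exclusion genes, 37 without Dlx1 and Tubb3 in the rule, and 35 without cells above the Nu-NB pseudogene percentile. The Nu-NB share became 3.03% with at least 500 genes per cell (P13 1.20%), the P13 share 3.46% without the exclusion genes and 0.661% under the pseudogene percentile, and the median over PDOXs (0.103%) 0.513% with at least 2 of 9. That median was 0 with at least 4 of 9, without cells over 20%, without Dlx1 and Tubb3 and under the pseudogene percentile, a fall smaller than the SD between PDOXs. The 199 and 278 of 1283 genes at least 2-fold higher and lower in P13 members became 303 and 478 of 1937 with at least 2 of 9, 116 and 177 of 768 under the pseudogene percentile, and 1394 and 1978 of 7525 with at least 1 UMI a gene, so the counts moved with the number of genes tested. The share of P13 members with cell-cycle genes fell from 18.8 to 6.67% under the pseudogene percentile, and that over all PDOX members, 23.1%, became 41.7% at 1000 UMIs and ranged from 17.1% without T16 to 42.9% without P13. Leaving out each PDOX in turn gave medians of the member share from 0.0513 to 0.104% and r from -0.599 to -0.0864 with pseudogenes, -0.334 to -0.103 with OPC-like cells and 0.0430 to 0.668 with astrocyte-like cells. In the fits, the 2 genes called by edgeR with TMM at 5 or more members became 0 with RLE factors (31 at an unadjusted p under 0.05), 0 without a filter (31) and 0 with DESeq2 (11), and with at least 2 of 9 marker genes these called 0 as well (44, 193 and 35). No paired analysis was possible because Nu-NB is 1 sample and shares no replicate pairs with the PDOXs. Without each PDOX, the fit at 2 of 9 called 0 genes (without P13) to 14 (without T16), and the change against the other cells 0 (3 to 65 at an unadjusted p under 0.05). The fit at 5 or more members without a PDOX would set 1 sample against 1 and was not made. At least 20 members were held by P13 alone, and by Nu-NB and P13 alone with at least 2 of 9 marker genes. No fit was therefore made at that limit. P3TMZ held 0 members and could not be added. Member numbers of 0 to 33 per sample limit every share.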

Other observations

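Members held few transcripts of hypoxia and antigen presentation genes. The 12 hypoxia and glycolysis genes, among them Vegfa, Eno1, Tpi1 and Aldoa, summed to 182 CPM (4 UMIs) in Nu-NB members and 149 CPM (6 UMIs) in P13 members, against 1239 and 1107 CPM in the other kept cells. The 10 interferon and MHC class I genes summed to 45.5 and 620 CPM against 1482 and 8374 CPM. The 8 p53 target genes had 4 and 13 UMIs, at 182 and 323 CPM against 215 and 461 CPM. Of the immediate early and heat shock genes, Jun had 12 UMIs in Nu-NB members and 54 in P13 members, a ratio of 2.45 (1.30 to 5.04), and Fos had 1 and 20 UMIs, of which 13 remained without the 2 P13 cells over 20%.

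Among genes of stem and transit-amplifying cells, Ccnd2, Sox2, Pax6 and Nes had the highest levels. Nes, the intermediate filament nestin, had 8 UMIs in 5 Nu-NB members and none in P13 members, although in the other kept cells it was higher in P13 (265 CPM) than in Nu-NB (30.3 CPM). Sox2 had 14 UMIs in Nu-NB members and 10 in P13 members. Of the neuronal long noncoding RNAs, Meg3 had 8 UMIs, all in 1 Nu-NB member, and 30 UMIs in 10 P13 members. Malat1 stood at 16343 and 22063 CPM in members, against 81805 and 25643 CPM in the other cells. The fibroblast list had 0 and 4 UMIs, and the lymphocyte list 0 and 3 UMIs.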
